A study of Mus musculus with 12 samples.

Results

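Red blood cells carry oxygen with haemoglobin, and most of what else they make serves to build that haemoglobin, to take in the iron for it and to hold the cell's flexible membrane together. The 30 red cell genes other than globins described here were chosen as a list of symbols, and 29 of them have a row among the 56691 genes of each library. This list and the other gene lists below were chosen with earlier results of these data known. Their counts beside the shares of all genes are therefore a description. RNA was sequenced from the palatal shelves, which grow out from the upper jaw and fuse into the palate, of mouse embryos at gestational day 12. The 12 libraries form 4 groups of 3. The knockout group is a conditional knockout of Dnmt1 and is labelled untreated. Dnmt1 maintains DNA methylation when DNA is replicated. The AzadC group is wild type and was treated with 5-aza-2'-deoxycytidine, a cytosine analogue that traps DNA methyltransferases. The vehicle group is wild type and received the vehicle of that compound, and the control group is wild type and untreated. By the labels' protocols each library holds the shelves of 2 embryos with the same genotype, a group holds 6 embryos, and these come from several litters. The series' design text instead gives 3 pooled animals as the replicates of a group, so that the sources differ on what a replicate is. Not given in the sources used here are the Cre driver, the exons it deletes, the cells that recombine, and how much AzadC or vehicle was given, by which route and when. The litter of each library is not given either, so that litter and group cannot be told apart.

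Red cell precursors depend on a small set of nuclear proteins, led by Gata1, Klf1 and Tal1, which switch on the genes of haem synthesis, the membrane and globin together. At this stage of mouse development the blood holds mostly primitive red cells from the yolk sac, which enter the circulation with a nucleus and mature there. A palatal shelf makes no red cells of its own, and the blood in its vessels comes along at dissection. In such bulk tissue, fewer red cells and less RNA per red cell cannot be told apart.

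The smallest library, AzadC 1, held 12640536 expected counts and the largest, control 1, held 33113790. Levels are given as CPM, each count over the scaled total of its library, and p-values are from edgeR with Benjamini-Hochberg adjustment over 17335 genes. A gene is called past an adjusted p of 0.05. Dnmt1 itself had 201, 179.6 and 191 CPM in knockout libraries, 408, 482 and 411 CPM in AzadC libraries, 452, 451 and 448 CPM in vehicle libraries, and 286, 278 and 258 CPM in control libraries. Its log2 change in knockout against control was -0.52 (SE 0.07, edgeR adjusted p = 0.000369). The p-values measure the spread between pooled libraries, since single embryos were not measured. Markers of palatal mesenchyme (Osr2, Prrx1, Twist1 and others) summed to 1006 to 1814 CPM and those of epithelium to 146 to 315 CPM in every library, so both tissues of the shelf were present.

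All 29 members passed the low-count filter, which asks for 3 of the 12 libraries above a small CPM and therefore lets a gene through on the groups where it is high. Klf1, Pklr, Gfi1b and Tspo2 had fewer than 3 control libraries at that level. Compared per transcript length, in the deposited TPM averaged over the 12 libraries, the most abundant member was Fech at 43.7 TPM. Its enzyme inserts the iron that completes haem, in all cells. Fech was followed by the mitochondrial iron importer Slc25a37 at 26.4 TPM, the red cell form of the initial haem enzyme Alas2 at 25.4 TPM, and the anion exchanger Slc4a1, known as band 3, at 22.6 TPM. The transferrin receptor Tfrc averaged 21.7 TPM and the carbonic anhydrase Car2 averaged 20 TPM. The lowest were Tspo2 at 0.677 TPM, Gfi1b at 1.15 TPM and Klf1 at 1.3 TPM. Fech, Cpox and Tfrc are made by most dividing cells and Aqp1 by endothelium, so that their reads in palatal tissue need not come from blood. Fech ran from 41.2 to 55.9 CPM over all 12 libraries and Cpox from 14.2 to 25.1 CPM, while Hemgn ran from 0.492 to 11.8 CPM.

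**Figure D1:**
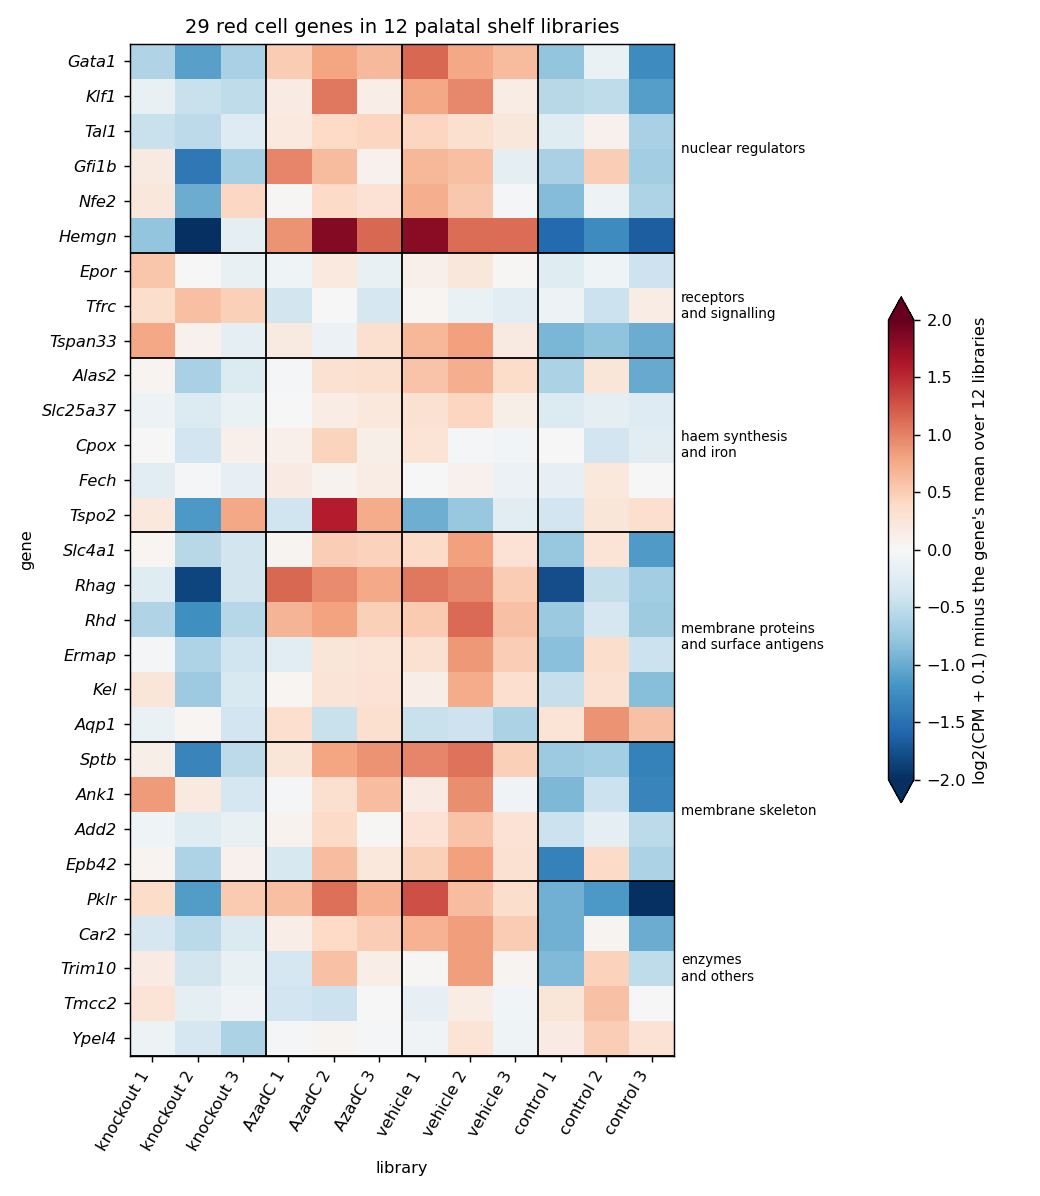
Each row is a red cell gene, ordered by role, and each column a library; colour is log2(CPM + 0.1) minus the gene's mean over the 12 libraries, red above and blue below. The AzadC and vehicle columns are red for Gata1, Hemgn, Rhag, Rhd and Sptb, the knockout and control columns are mostly blue there, and Aqp1 runs the other way in the vehicle columns.

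Knockout against control asked which red cell genes differ in shelves of the Dnmt1 knockout. Dnmt1 reads were lower there but still present, and whether the red cells lost Dnmt1 is not known. Of the 29 members, 3 were higher and 2 lower, beside 7.83% and 6.43% of all genes tested, 14.3% in either direction. The shares of the members were 10.3% and 6.9%, close to those of all genes. The median log2 change of the members was 0.11, and that of all genes was -0.003. The genes that rose were Tspan33, Ank1 and Tfrc, and those that fell were Aqp1 and Ypel4; no nuclear regulator and no enzyme of haem synthesis was called. All 3 knockout libraries were above all 3 control libraries for 4 members and below them for 2, beside 16.9% and 15% of all genes. The count of 5 was 2 without knockout 1 and 3 without knockout 2, knockout 3 or control 3.

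Tspan33, a membrane-spanning protein of red cell precursors, stood at 6.3, 3.84 and 3.14 CPM in knockout libraries, 4.1, 3.33 and 4.57 CPM in AzadC libraries, 5.82, 6.49 and 4.11 CPM in vehicle libraries, and 1.88, 2.03 and 1.77 CPM in control libraries. All 9 libraries outside the control group were thus above the 3 control libraries. Its log2 change in knockout against control was 1.23 (SE 0.28, edgeR adjusted p = 0.0104), and 0.88 without knockout 1 (0.0518). Ank1, the ankyrin that ties the membrane skeleton to band 3, had 21.4, 13.6 and 9.37 CPM in knockout libraries, 11.7, 14.8 and 18.3 CPM in AzadC libraries, 13.3, 22.8 and 11.3 CPM in vehicle libraries, and 6.31, 8.83 and 4.67 CPM in control libraries. Here too the 3 control libraries were the lowest of all 12. The log2 change of Ank1 was 1.16 (SE 0.33, edgeR adjusted p = 0.034), with 0.79 and an adjusted p of 0.154 without knockout 1, and the call was also lost without knockout 2 (0.0712), control 1 (0.0867) or control 3 (0.0974). In TPM, which divides by the length of the transcript forms that the reads were assigned to, Ank1 stood at 17.5, 12.1 and 6.2 in knockout libraries and at 3.47, 3.11 and 2.22 in control libraries.

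Tfrc, which brings iron-loaded transferrin into dividing cells, had 66.1, 78.8 and 72.1 CPM in knockout libraries, 40.4, 51.8 and 41.3 CPM in AzadC libraries, 53.5, 47.2 and 44.5 CPM in vehicle libraries, and 48.7, 38.5 and 57.5 CPM in control libraries. The 3 knockout libraries were the highest of the 12, and the other 9 overlapped. Tfrc was higher than in control by 0.59 on the log2 scale (SE 0.14, edgeR adjusted p = 0.012; 0.0607 without knockout 2) and than in vehicle by 0.58 (SE 0.14, adjusted p = 0.0152; 0.0773 without knockout 2). The water channel Aqp1 had 10.2, 11.5 and 8.59 CPM in knockout libraries, 14.2, 8.24 and 14 CPM in AzadC libraries, 8.17, 8.35 and 7.22 CPM in vehicle libraries, and 13.6, 21 and 16.8 CPM in control libraries. The knockout libraries lay below all control libraries and above all vehicle libraries. Its log2 change in knockout against control was -0.76 (SE 0.21, edgeR adjusted p = 0.0282), a call that was lost without knockout 1 (0.071), knockout 3 (0.0927), control 2 (0.128) or control 3 (0.0549). Ypel4 had 9.91, 8.46 and 6.87 CPM in knockout libraries, 10.5, 11.1 and 10.5 CPM in AzadC libraries, 10.1, 12.9 and 10 CPM in vehicle libraries, and 11.9, 15.1 and 13 CPM in control libraries. All knockout libraries were the lowest of the 12, with a log2 change of -0.66 against control (SE 0.16, edgeR adjusted p = 0.0152), which was not called without knockout 2 (0.0544), knockout 3 (0.0546) or control 2 (0.0703).

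Macrophage markers moved in the same comparison: 10 of the 12 tested were higher in knockout libraries, beside 7.83% of all genes. The summed level of all 15 listed markers was 411 to 481 CPM in knockout libraries, against 161 to 201 CPM in control libraries. Of these markers Cd163 was at 0 in 8 of the 12 libraries and Spic in 6. Hmox1, which breaks haem down and is abundant in macrophages, rose by 1.09 on the log2 scale (SE 0.17, edgeR adjusted p = 0.000921). The endothelial list, with 2 of 12 lower beside 6.43% of all genes, summed to 437 to 525 CPM in knockout libraries and 562 to 598 CPM in control libraries. The part of these cells in the changes of Tfrc, Ank1, Tspan33 and Aqp1 was not tested.

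AzadC against vehicle asked the same of the compound. None of the 29 members was called by edgeR, DESeq2 or limma-voom, while 0.0115% of all genes were called by edgeR. Below an unadjusted p of 0.05 in edgeR there were 2, Aqp1, at 0.62 log2 units (SE 0.21, edgeR adjusted p = 0.63), and Tspo2, at 1.84 (SE 0.70, 0.695), whose counts were 42 over the AzadC group and 14 over the vehicle group. The share of all genes below an unadjusted p of 0.05 is not given here, for any comparison. The median log2 change of the members was -0.16, and that of all genes -0.003. The log2 changes of the regulators ran from -0.22 for Gata1 to 0.20 for Gfi1b, and Hemgn changed by -0.03 (SE 0.40). Ermap, Car2 and Alas2 had all 3 AzadC libraries below all 3 vehicle libraries, at log2 changes of -0.45, -0.34 and -0.35, without a call, and no member had them all above. Such separation upward or downward was seen in 6.11% and 5.76% of all genes tested.

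Vehicle against control asked whether the 2 wild-type baselines differ in these genes. Of the 29 members, 10 were higher in vehicle libraries and 1 was lower, beside 1.46% and 2.06% of all genes tested, 3.52% in either direction. The median log2 change of the members was 0.80, and that of all genes was -0.003. All 3 vehicle libraries were above all 3 control libraries for 17 members and below them for 1, beside 11.2% and 11.5% of all genes. The genes that rose were Gata1 and Hemgn among the nuclear proteins, Rhag and Rhd among the surface antigens, Sptb and Add2 of the membrane skeleton, Tspan33, the iron importer Slc25a37, and the enzymes Pklr and Car2. Aqp1 fell.

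**Figure D2:**
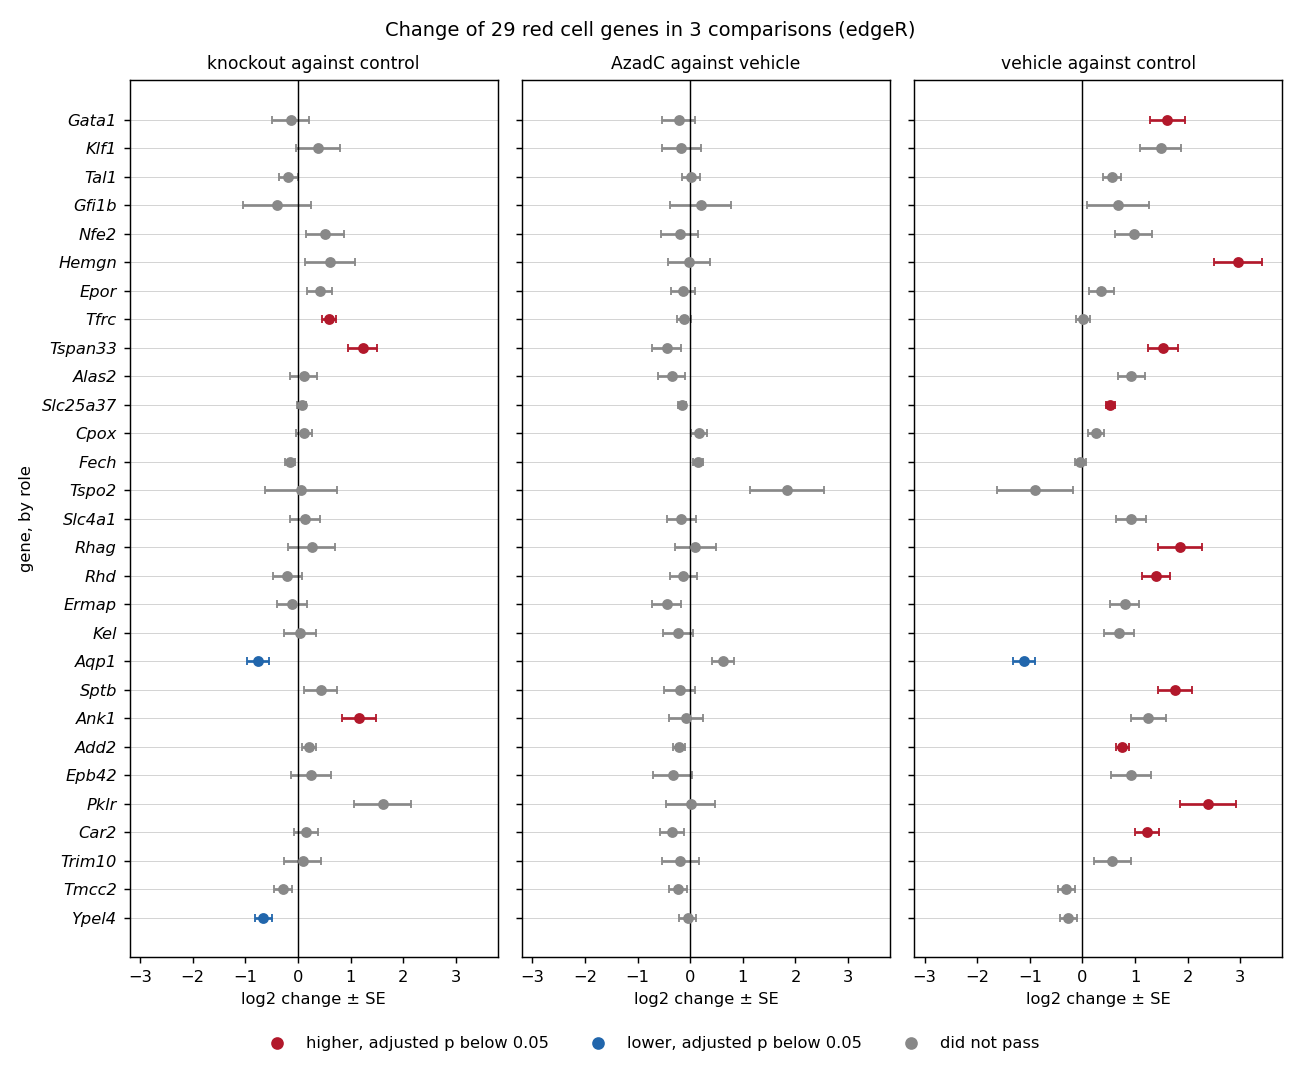
The log2 change ± SE of each of the 29 genes, ordered by role, in knockout against control, AzadC against vehicle and vehicle against control; red and blue points passed the threshold, higher and lower. The third panel holds 10 red points and 1 blue point, the first 3 red and 2 blue, and the second none.

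Among the regulators, Gata1, the factor that directs the red cell and platelet lineages, had 0.868, 0.591 and 0.83 CPM in knockout libraries, 1.97, 2.42 and 2.2 CPM in AzadC libraries, 3.16, 2.41 and 2.18 CPM in vehicle libraries, and 0.745, 1.23 and 0.513 CPM in control libraries. Every vehicle library and every AzadC library was above every knockout and control library. The CPM values rest on 45 counts over the knockout group, 131 over the AzadC group, 180 over the vehicle group and 66 over the control group. The log2 change in vehicle against control was 1.61 (SE 0.33, edgeR adjusted p = 0.0216), and the call was lost without vehicle 1 (0.0925), vehicle 3 (0.0542), control 1 (0.0563) or control 3 (0.0668). Hemgn (ENSMUSG00000028332, chromosome 4, 46393989 to 46413506, minus strand, mm10), a nuclear protein of blood precursors, had 1.83, 0.492 and 2.84 CPM in knockout libraries, 6.15, 11.8 and 7.31 CPM in AzadC libraries, 11.6, 7.13 and 7.18 CPM in vehicle libraries, and 1.04, 1.3 and 0.97 CPM in control libraries. Its vehicle and AzadC libraries stood apart from the other 6, and its log2 change in vehicle against control, 2.95 (SE 0.46, edgeR adjusted p = 0.00577), was the largest of the 29 members in that comparison. Klf1, which activates adult beta globin and many membrane genes, had 0.868, 0.689 and 0.652 CPM in knockout libraries, 1.1, 2.12 and 1.07 CPM in AzadC libraries, 1.73, 1.99 and 1.09 CPM in vehicle libraries, and 0.626, 0.651 and 0.399 CPM in control libraries. The groups separated in the same way, but the change of 1.49 (SE 0.39) missed the threshold (edgeR adjusted p = 0.053; DESeq2 0.0281). Tal1, the partner of Gata1, changed by 0.56 (SE 0.17, edgeR adjusted p = 0.0909), Nfe2 by 0.97 (SE 0.35, 0.151) and the repressor Gfi1b by 0.67 (SE 0.59, 0.602).

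**Figure D3:**
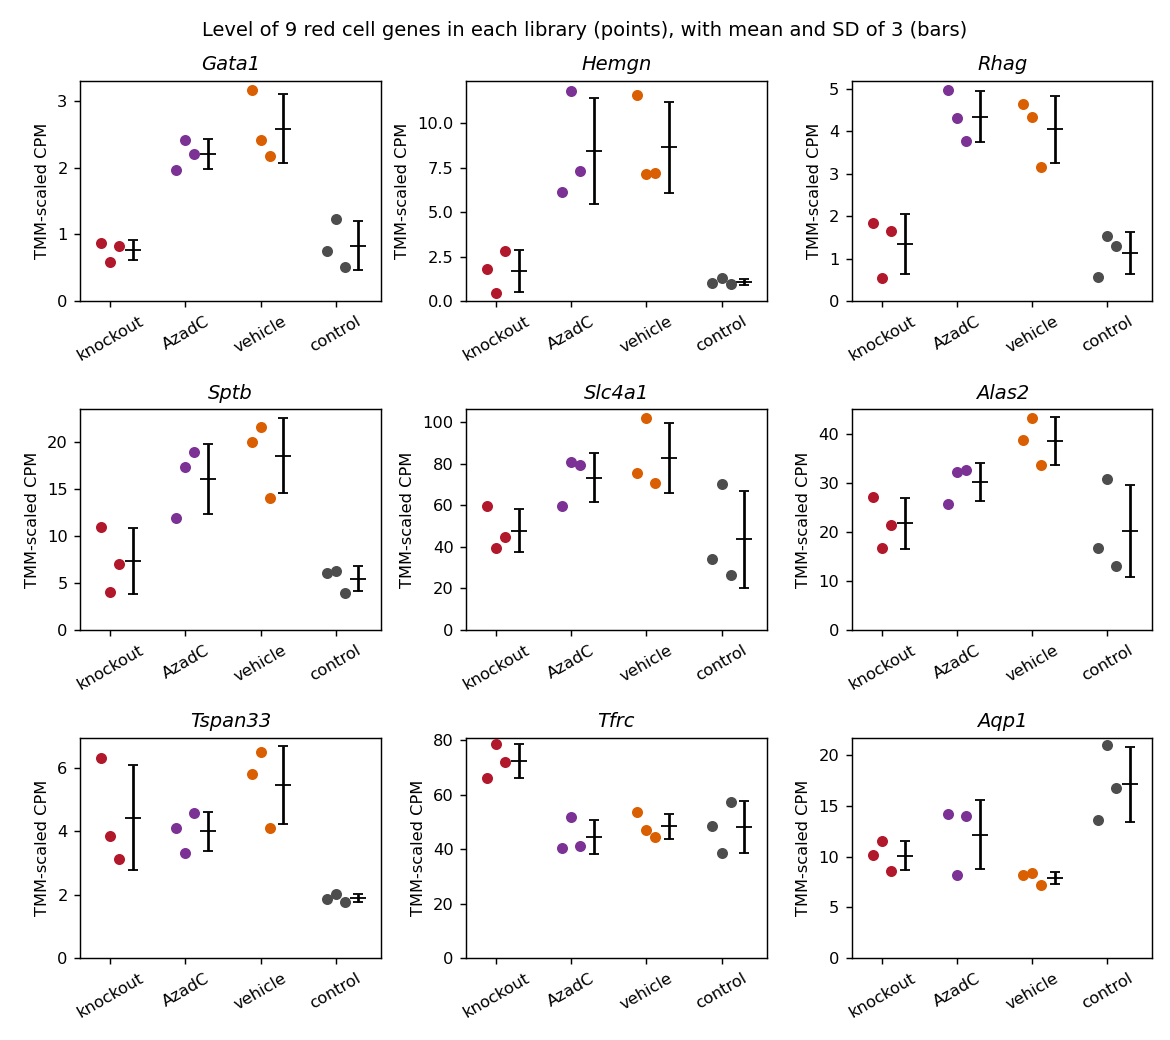
Level of 9 red cell genes in TMM-scaled CPM, with a point for each library and the mean with SD of 3 libraries as bars. For Gata1, Hemgn, Rhag and Sptb the AzadC and vehicle points lie above the knockout and control points; Slc4a1 overlaps through control 2, and Alas2 through control 2 and knockout 1; Tspan33 is low in control alone, Tfrc is high in knockout, and the mean of Aqp1 is highest in control, where its points overlap those of AzadC.

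On the cell surface, Rhag, the partner that carries the Rh antigen to the membrane, had 1.83, 0.541 and 1.66 CPM in knockout libraries, 4.96, 4.3 and 3.77 CPM in AzadC libraries, 4.64, 4.34 and 3.15 CPM in vehicle libraries, and 0.566, 1.53 and 1.31 CPM in control libraries. The 6 AzadC and vehicle libraries again lay above the other 6. Its log2 change in vehicle against control was 1.85 (SE 0.42, edgeR adjusted p = 0.03), with adjusted p-values of 0.0663 to 0.105 without vehicle 1, vehicle 2, vehicle 3, control 1 or control 3. Rhd, the Rh antigen, had 1.78, 1.13 and 1.84 CPM in knockout libraries, 4.49, 4.91 and 3.87 CPM in AzadC libraries, 4.02, 6.17 and 4.19 CPM in vehicle libraries, and 1.61, 2.18 and 1.65 CPM in control libraries. It rose by 1.40 in vehicle against control (SE 0.26, edgeR adjusted p = 0.0141). Slc4a1, the most abundant membrane protein of the red cell, had 59.5, 39.3 and 44.6 CPM in knockout libraries, 59.7, 81 and 79.2 CPM in AzadC libraries, 75.3, 102 and 70.7 CPM in vehicle libraries, and 34.3, 70 and 26.4 CPM in control libraries. Control 2 nearly reached the lowest vehicle library, and the change of 0.92 (SE 0.29) was not called (edgeR adjusted p = 0.0935; 1.44 and 0.00714 without control 2). The blood group proteins Ermap, at 0.80 (adjusted p = 0.119), and Kel, at 0.69 (0.216), did not pass. Aqp1, with the values given above, changed by -1.11 (SE 0.21, edgeR adjusted p = 0.0153), and its call was lost without vehicle 1 (0.0618), vehicle 3 (0.0724) or control 2 (0.0542).

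In the membrane skeleton, Sptb, the beta spectrin of red cells, had 11, 3.99 and 6.99 CPM in knockout libraries, 11.9, 17.4 and 18.9 CPM in AzadC libraries, 20, 21.6 and 14 CPM in vehicle libraries, and 6.08, 6.28 and 3.88 CPM in control libraries. All 6 AzadC and vehicle libraries were above the other 6, and the log2 change in vehicle against control was 1.76 (SE 0.32, edgeR adjusted p = 0.0122; 0.0514 without vehicle 1). Add2, the beta adducin that caps actin filaments under the membrane, had 21.1, 18.8 and 20.1 CPM in knockout libraries, 23.6, 29.3 and 22.8 CPM in AzadC libraries, 27.2, 33.2 and 27.3 CPM in vehicle libraries, and 16.5, 19.6 and 15.6 CPM in control libraries. It rose by 0.76 in vehicle against control (SE 0.13, edgeR adjusted p = 0.00832). Ank1, with the values given above, changed by 1.25 (SE 0.33) and just missed the threshold (adjusted p = 0.0557; DESeq2 0.00229), and Epb42, which binds band 3 from inside, changed by 0.93 (SE 0.38, edgeR adjusted p = 0.194).

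Of the haem and iron genes, Slc25a37, which carries iron into mitochondria for haem, had 73.6, 64.8 and 71.8 CPM in knockout libraries, 78.9, 87.3 and 90.8 CPM in AzadC libraries, 96.7, 106 and 85 CPM in vehicle libraries, and 64.7, 69.3 and 66 CPM in control libraries. The vehicle and control libraries did not overlap, while AzadC overlapped vehicle and knockout overlapped control. The log2 change in vehicle against control was 0.53 (SE 0.09, edgeR adjusted p = 0.00759). Alas2, which makes the precursor of haem in red cells, had 27.1, 16.6 and 21.4 CPM in knockout libraries, 25.7, 32.2 and 32.6 CPM in AzadC libraries, 38.6, 43.2 and 33.5 CPM in vehicle libraries, and 16.7, 30.7 and 12.9 CPM in control libraries. Control 2 was above the other controls, and the change of 0.93 (SE 0.26) was not called (edgeR adjusted p = 0.0639; 1.37 and 0.00714 without control 2). Fech had 41.2, 47.4 and 43.1 CPM in knockout libraries, 54.1, 50.4 and 53.5 CPM in AzadC libraries, 47.9, 50.9 and 44.1 CPM in vehicle libraries, and 43, 55.9 and 47.9 CPM in control libraries, and its log2 change in vehicle against control was -0.04 (SE 0.10, edgeR adjusted p = 0.889). Cpox, the haem enzyme of mitochondria that acts before it in the pathway, changed by 0.25 (SE 0.15, adjusted p = 0.414), Tspo2 by -0.90 (SE 0.72, 0.557) and Tfrc by 0.01 (SE 0.14, 0.997).

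Among the enzymes, Pklr, the pyruvate kinase of liver and red cells, had 1.28, 0.394 and 1.44 CPM in knockout libraries, 1.52, 2.19 and 1.63 CPM in AzadC libraries, 2.53, 1.55 and 1.27 CPM in vehicle libraries, and 0.453, 0.383 and 0.117 CPM in control libraries. The 27.2 expected counts of the control group are the smallest base of any called gene. Its log2 change in vehicle against control was 2.38 (SE 0.53, edgeR adjusted p = 0.0276), with 0.106 without vehicle 1, 0.0562 without vehicle 3, 0.07 without control 2 and 0.0793 without control 3. Car2, which turns carbon dioxide into bicarbonate, had 12.2, 10.6 and 12.6 CPM in knockout libraries, 17, 20.3 and 21.7 CPM in AzadC libraries, 25.2, 27.6 and 22.1 CPM in vehicle libraries, and 7.9, 16.1 and 7.76 CPM in control libraries. It rose by 1.23 in vehicle against control (SE 0.23, edgeR adjusted p = 0.0146; 0.0589 without vehicle 1). Trim10, which red cell precursors need to mature, changed by 0.57 (SE 0.35, adjusted p = 0.411), Tmcc2 by -0.31 (SE 0.16, 0.331) and Ypel4 by -0.27 (SE 0.16, 0.385). The receptor of erythropoietin, Epor, changed by 0.36 (SE 0.23, 0.428). Some of these genes overlap a gene on the other strand with reads of its own, Alas2 with Apex2 at a mean of 29.4 CPM, Sptb with Plekhg3 at 20.5 CPM and Pklr with Hcn3 at 3.02 CPM, and no source used here states whether counting used strand.

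The control libraries were unequal. Control 2 was the highest of the 3 for 25 of the 29 members, and its globins summed to 5534 CPM, against 2399.6 CPM in control 1 and 2041 CPM in control 3. Without control 2, 14 members were higher in vehicle against control and none lower, and Alas2, Slc4a1, Tal1, Ermap and Epb42 were then among those called. Without vehicle 1, 4 were higher and none lower, and without vehicle 3, 7 were higher and none lower. Over all genes 97 were higher without control 2, 46 without vehicle 1 and 52 without vehicle 3, beside 253 with all libraries. Hemgn, Slc25a37, Add2 and Rhd were called under every alternative tried. Among the knockout libraries, knockout 2 was the lowest for 21 of the 29 members. For these orders of the libraries within a group, the share over all genes is not given here.

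Platelet precursors share Gata1, Gfi1b, Nfe2 and Tal1 with red cells. The 12 megakaryocyte and platelet markers summed to 27.4 to 45.8 CPM in vehicle libraries and 12.1 to 20.2 CPM in control libraries, with a median log2 change of 1.08 and none called by edgeR, although 6 were below an unadjusted p of 0.05. Gp6 was at 0 in 1 library. Mast cells, which share Gata1 and Kit, summed to 0.474 to 3.33 CPM over the 6 markers: Mcpt4 and Tpsb2 were at 0 in all 12 libraries. The endothelial markers, which share Tal1 and Aqp1, summed to 524 to 577 CPM in vehicle libraries and 562 to 598 CPM in control libraries, and none of the 12 was called by edgeR, with 2 below an unadjusted p of 0.05. Counts below that p stand without the share of all genes. In the same comparison 2 of the 8 epithelial markers were lower and none higher, and no palatal mesenchyme marker was called. Of the 12 macrophage markers tested, 2 were higher and 1 was lower. Over all genes 1.46% were higher and 2.06% lower. The part of platelet precursors in the change of Gata1 was not tested.

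Because the vehicle and control groups differ, the members were also compared across them, and these comparisons share libraries with those above. In knockout against vehicle 1 member was higher and 10 were lower, beside 6.7% and 4.13% of all genes tested, 10.8% in either direction, with a median log2 change of -0.65 for the members and -0.003 for all genes. All 3 knockout libraries were below all 3 vehicle libraries for 15 members and above them for 2, beside 14.5% and 16% of all genes. Hemgn changed by -2.34 (SE 0.44, edgeR adjusted p = 0.00431), Gata1 by -1.75 (SE 0.34, 0.00521), Rhd by -1.60 (SE 0.27, 0.00173), Rhag by -1.59 (SE 0.42, 0.0267), Sptb by -1.33 (SE 0.31, 0.0149) and Car2 by -1.08 (SE 0.23, 0.0086). Ermap (adjusted p = 0.0488), Tal1 (0.0157), Add2 (0.0127) and Slc25a37 (0.00406) were the others that were lower, and Tfrc was the member that was higher. The count of lower members was 5 without knockout 2, 6 without vehicle 2 and 7 without vehicle 1. Over all genes 294, 474 and 519 were then lower, beside 716 with all libraries. Without knockout 2 the calls of Rhag (0.0908), Sptb (0.053), Tal1 (0.0772), Add2 (0.0642) and Tfrc (0.0773) were lost. Without vehicle 2 those of Rhag (0.0704), Sptb (0.0539), Add2 (0.0572) and Tfrc (0.0527) were lost, and without vehicle 1 those of Rhag (0.0736) and Tal1 (0.054). Sptb was also not called without knockout 3 (0.0502), nor Tfrc without vehicle 3 (0.0761), and Ermap lost its call without any 1 of 9 libraries (0.0539 to 0.185). In AzadC against control, a comparison added after the data were seen, 7 members were higher and none lower, beside 0.883% and 0.946% of all genes, 1.83% in either direction. All 3 AzadC libraries were above all 3 control libraries for 15 members and below them for 2, beside 10.7% and 10.4% of all genes. Hemgn changed there by 2.92 (SE 0.46, edgeR adjusted p = 0.00901), Rhag by 1.95 (SE 0.42, 0.0342) and Sptb by 1.56 (SE 0.32, 0.0281), and Rhd, Pklr, Add2 and Slc25a37 were the other 4. That count was 0 without AzadC 2, where the adjusted p-values of the 7 ran from 0.0521 to 0.203. Over all genes that fit called 16 higher and 21 lower, beside 153 and 164 with all libraries. In it the log2 change stayed above 0 for 25 members, beside 48.5% of all genes. The median of the members was 0.54, beside 0.60 with all libraries, and that of all genes was -0.004. The count of called members was 1 without control 3, 2 without AzadC 1 or control 1, and 4 without AzadC 3 or vehicle 3.

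By their treatment labels, the knockout and control libraries are untreated and the other 6 received AzadC or its vehicle. For 10 of the 29 members all 6 treated libraries were above all 6 untreated ones, beside 1.41% of all genes tested, and for no member were they all below, beside 1.36%. These were Gata1, Klf1, Hemgn, Tal1, Rhag, Rhd, Sptb, Add2, Car2 and Slc25a37. As a ratio the gap was widest for Hemgn, where the lowest treated library had 6.15 CPM and the highest untreated one 2.84 CPM, and small for Tal1, with 10.8 and 10 CPM. This split of the libraries was looked at after the values were seen, and no test was run on it.

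The difference between the knockout and AzadC effects, that is knockout minus control less AzadC minus vehicle, was called for 2 members, 1 higher and 1 lower, beside 2.2% of all genes in each direction and 4.4% in either. Tspan33 differed by 1.67 log2 units (SE 0.39, edgeR adjusted p = 0.0291), made up of 1.23 in the knockout and -0.45 with AzadC. That call was lost without any 1 of 9 libraries, with adjusted p-values of 0.0507 to 0.0664, and kept without knockout 3, vehicle 3 or control 1. Aqp1 differed by -1.38 (SE 0.30, edgeR adjusted p = 0.0216), made up of -0.76 and 0.62, and its call was lost without AzadC 1 (0.0595), AzadC 3 (0.0638), vehicle 3 (0.0557) or control 2 (0.0583). Tfrc differed by 0.71 (SE 0.19) and was not called by edgeR (adjusted p = 0.059; DESeq2 0.0108).

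Gata1 binds DNA at short words around the letters GATA, and Klf1 at CACC boxes. The 250 bases before the RefSeq start (assembly GRCm38.p6) could be read for 23 of the 30 members and were searched on both strands for the words AGATAA, and TGATAA with its variant TGATAG, and also AGATAG. At least 1 of these words stood in 15 of the 23 promoters, 65.2%, and in 27.1% of all 27025 promoters of that length. CCNCNCCC, a CACC box, stood in 13 of the 23, 56.5%, and in 45.6% of all, and CANNTG, an E-box of the kind that Tal1 binds, in 15 of the 23, 65.2%, and in 66% of all. The words were counted separately, so that a base can belong to more than 1 of them. Such a match describes letters only. The promoters below belong to Hemgn, Add2 and Rhd, 3 of the members with the smallest adjusted p-values, and are shown because each holds a GATA word, printed in capitals. That of Hemgn (chr4:46404184-46404213, minus strand) is the 30 bases before the RefSeq start, with the word 13 bases before it. A GENCODE transcript holds 53 bases before that start, counted along the transcript, which need not be adjacent in the genome. The GENCODE gene reaches further upstream, to 46413506, so the word need not lie near the start of the gene. The promoters shown for Add2 (chr6:86028431-86028680, plus strand) and Rhd (chr4:134864286-134864535, plus strand) are 250 bases long. Their words stand 234 and 43 bases before the start, and CTATCT is AGATAG on the other strand.
Hemgn: ctcacacctgtgcagtgTGATAAagaaagt
Add2: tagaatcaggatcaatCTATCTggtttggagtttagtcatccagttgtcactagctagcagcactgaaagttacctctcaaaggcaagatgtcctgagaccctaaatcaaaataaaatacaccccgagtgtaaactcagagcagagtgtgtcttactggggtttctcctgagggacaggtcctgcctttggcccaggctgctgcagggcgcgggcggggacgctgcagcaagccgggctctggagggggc
Rhd: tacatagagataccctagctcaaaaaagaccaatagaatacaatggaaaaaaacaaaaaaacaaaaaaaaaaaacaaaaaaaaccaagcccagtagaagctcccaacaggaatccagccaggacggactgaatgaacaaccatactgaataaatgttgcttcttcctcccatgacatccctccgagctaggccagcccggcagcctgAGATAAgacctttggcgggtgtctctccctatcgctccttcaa
The promoters of Tspan33, Tfrc and Sptb, which were also among the called members, held no GATA word in these 250 bases.

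The members did not keep the same proportions to each other. Within a library, Alas2 had 45.6, 42.1 and 48.1 counts per 100 counts of Slc4a1 in knockout libraries, 43.1, 39.7 and 41.2 in AzadC libraries, 51.2, 42.6 and 47.3 in vehicle libraries, and 48.7, 43.8 and 48.7 in control libraries. All 12 values fell between 39.7 and 51.2, although Slc4a1 itself ran from 26.4 to 102 CPM. Hemgn had 3.07, 1.25 and 6.38 counts per 100 counts of Slc4a1 in knockout libraries, 10.3, 14.6 and 9.23 in AzadC libraries, 15.4, 7.03 and 10.2 in vehicle libraries, and 3.04, 1.86 and 3.67 in control libraries. The AzadC and vehicle libraries were above the other 6 in this ratio. Gata1 gave 1.46, 1.5 and 1.86 in knockout libraries, 3.3, 2.99 and 2.78 in AzadC libraries, 4.19, 2.37 and 3.08 in vehicle libraries, and 2.17, 1.75 and 1.94 in control libraries, with the same separation. Sptb also separated, from 19.7 to 26.6 in the AzadC and vehicle libraries and from 8.97 to 18.5 in the others, while Kel ran from 10.7 to 13.1 in the AzadC and vehicle libraries and from 11.1 to 15.4 in the others. The remaining genes taken over Slc4a1 were Rhag, Rhd, Car2, Epb42, Trim10 and Ermap. For each of them the AzadC and vehicle libraries overlapped the others, so that over Slc4a1 only Hemgn, Gata1 and Sptb separated. Per 1000 globin counts, Slc4a1 itself ran from 18.2 to 20.1 in the AzadC and vehicle libraries and from 12.7 to 17.5 in the others. Alas2 ran from 7.75 to 10.1 and from 5.55 to 7.64. Over globin, Rhag, Rhd, Car2, Hemgn, Gata1 and Sptb separated in the same direction and Tmcc2 in the other, while the remaining members overlapped. Slc4a1 was taken as the base after the values were seen, and no test was run on these ratios. Only the genes named here were set over Slc4a1, and the share of all genes that separate in such ratios is not given.

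**Figure D4:**
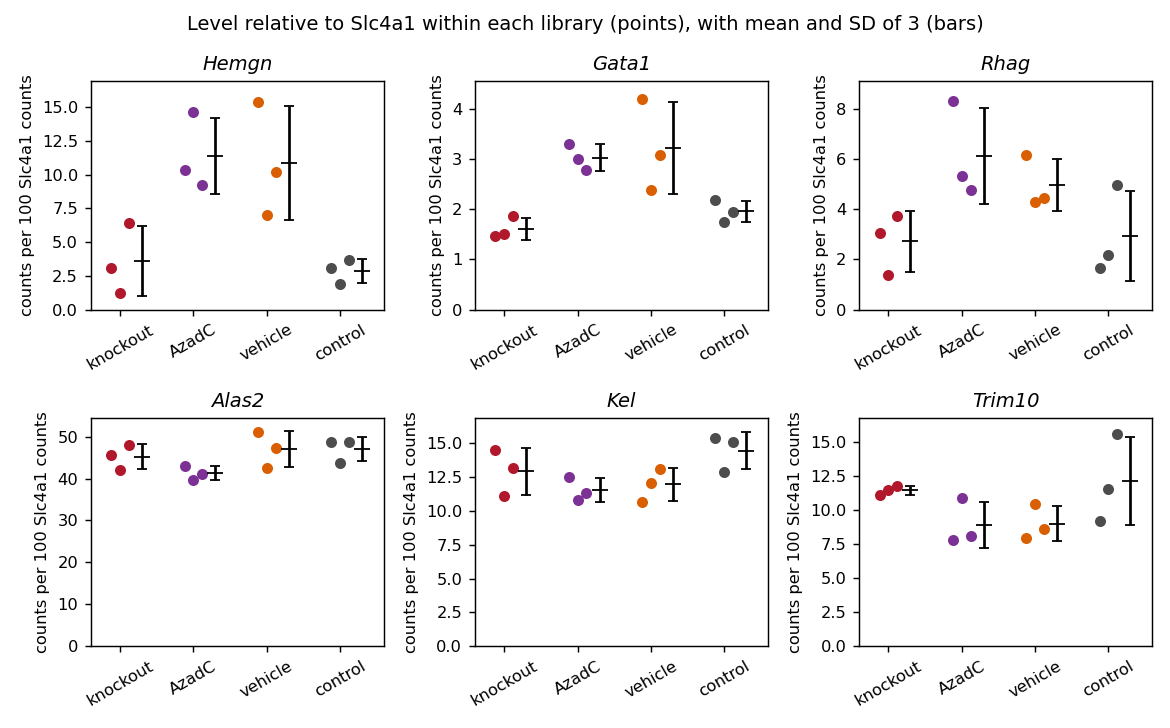
Counts of 6 red cell genes per 100 counts of Slc4a1 in the same library, with a point for each library and the mean with SD of 3 libraries as bars. Hemgn and Gata1 are higher in the AzadC and vehicle libraries, Rhag overlaps at control 3, and Alas2 stays between 39.7 and 51.2 in all 12 libraries.

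A wider list of red cell genes, 66 with a row and 64 tested, gave 4 higher and 3 lower in knockout against control, beside 7.83% and 6.43% of all genes, shares no larger than those of all genes. None was called in AzadC against vehicle, where 4 were below an unadjusted p of 0.05 in edgeR. In vehicle against control 6 were higher and none lower, beside 1.46% and 2.06% of all genes. Cd24a, a surface protein of many cell types that red cell precursors also carry in mouse, had 359, 366 and 379 CPM in knockout libraries, 424, 472 and 467 CPM in AzadC libraries, 509, 459 and 474 CPM in vehicle libraries, and 411, 368 and 328 CPM in control libraries. All AzadC and vehicle libraries were above all knockout and control libraries. Cd24a rose by 0.38 in vehicle against control (SE 0.08, edgeR adjusted p = 0.0211), and the call was lost without vehicle 1 (0.0938) and without any 1 of vehicle 3, control 2 and control 3. Kit, the receptor for stem cell factor on early red cell precursors, mast cells and melanocytes, rose by 0.83 in knockout against control (SE 0.08, adjusted p = 1.14e-05) and by 0.63 in vehicle against control (SE 0.08, 0.00128). Sox6, which helps to silence embryonic globin in mouse and also acts in cartilage and muscle, fell by 1.0 in knockout against control (SE 0.19, adjusted p = 0.00388), and Gypc, a glycophorin of many tissues, fell by 0.32 (SE 0.08, 0.0169), which was not called without control 2 (0.0815), knockout 2 or knockout 3. The Sox6 change against vehicle was -0.52 (SE 0.19, edgeR adjusted p = 0.108).

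The globins give the scale of the red cell RNA. In vehicle against control 2 of the 8 globins tested were higher and none lower, beside 1.46% and 2.06% of all genes; the log2 change was above 0 for 5 and below 0 for 3. The embryonic beta-like globin Hbb-bh1, which primitive red cells make early, had 150.2, 77.9 and 85 CPM in knockout libraries, 264, 386 and 298 CPM in AzadC libraries, 437, 358 and 294 CPM in vehicle libraries, and 88.7, 128 and 60.1 CPM in control libraries. Its log2 change in vehicle against control was 1.97 (SE 0.28, edgeR adjusted p = 0.00382), and that of the embryonic alpha-like Hba-x was 1.38 (SE 0.29, 0.0239), lost without vehicle 1 (0.0844) and without any 1 of vehicle 2, vehicle 3, control 1 and control 3. The lowest log2 change of the list, -1.02 (SE 0.37, edgeR adjusted p = 0.146), was that of the adult beta globin Hbb-bs, with 129, 108 and 178 CPM in knockout libraries, 73.5, 117 and 79.1 CPM in AzadC libraries, 55.2, 123 and 65.1 CPM in vehicle libraries, and 107, 276 and 114 CPM in control libraries. Its vehicle and control libraries overlapped. Hbb-bh1 and Hbb-bs were singled out after their values were seen. Hbb-y, the embryonic globin that follows Hbb-bh1 as these cells mature, had 1859, 1265 and 1559 CPM in knockout libraries, 1758, 1939.6 and 2241 CPM in AzadC libraries, 2001, 2806 and 2106 CPM in vehicle libraries, and 1296, 3013 and 1099 CPM in control libraries. It changed by 0.35 (SE 0.29, edgeR adjusted p = 0.571), and Hba-a1, which the embryo shares with the adult and whose near-identical copy is Hba-a2, by -0.20 (SE 0.38, 0.839). Hbb-bh1 had 8.08, 6.16 and 5.45 counts per 100 counts of Hbb-y in knockout libraries, 15, 19.9 and 13.3 in AzadC libraries, 21.8, 12.8 and 14 in vehicle libraries, and 6.85, 4.26 and 5.47 in control libraries. As for Hemgn over Slc4a1, the AzadC and vehicle libraries lay above the other 6, and this ratio too was chosen after the values were seen and was not tested.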

How the data were processed

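RNA from palatal shelves of gestational day 12 mouse embryos was sequenced in 12 libraries after a NuGen mRNA kit, per the labels' protocols. Per the submitters' processing notes, the tools included STAR 2.7.0 and RSEM 1.3.1, with FastQC, DESeq2 and Trim Galore, and the build was mm10. The authors deposited expected counts, TPM and FPKM per gene, per the file headers. RSEM divides reads between genes, so 77.6% to 81.4% of nonzero expected counts were whole within 0.005; FPKM were not used.

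Expected counts were rounded and tested with edgeR 4.0.16 in R 4.3.3: filterByExpr by group, TMM scaling, 1 mean per group over 12 libraries, glmQLFit and glmQLFTest, Benjamini-Hochberg adjustment over 17335 genes. The SE is the size of the log2 change over the root of F. Each library counted as 1 replicate. No shared litter or batch is stated for libraries of the same replicate number. Their deviations from the group means correlated at -0.184 to 0.277. Libraries of different numbers were not compared, so these values cannot decide whether the numbers pair the libraries. Alternatives were DESeq2 1.42.0, limma-voom (limma 3.58.1), RLE and upper-quartile scaling, globins left out, other filters, fits of the compared groups alone, the replicate number as block, another reference and each library left out.

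The members and lists were chosen with earlier results of these data known. Named were Dnmt1, all members, up to 4 wider red cell genes per comparison by adjusted p, and the 4 globins highest in CPM; exceptions are stated, and some genes that this rule names are not reported here. 1 member is not analysed here. Coordinates are from GENCODE M21, promoters from RefSeq. The scripts were tested on simulated data. Depth was 12640536 to 33113790 counts per library.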

Additional observations from a re-analysis of the deposited data

Results flagged for a closer look

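For 4 genes the change in the knockout and the change with AzadC differed past the threshold in a test of the difference itself (edgeR, adjusted over all genes). Tspan33 differed by 1.67 log2 units (SE 0.39, edgeR adjusted p = 0.0291), with 1.23 in knockout against control and -0.45 in AzadC against vehicle. Aqp1 differed by -1.38 (SE 0.30, edgeR adjusted p = 0.0216), with -0.76 and 0.62. Kit differed by 0.87 (SE 0.11, edgeR adjusted p = 0.000731), with 0.83 in knockout against control, where all knockout libraries were above all control libraries, and -0.03 in AzadC against vehicle. Dnmt1, the deleted gene, differed by -0.47 (SE 0.10, edgeR adjusted p = 0.0209), with -0.52 and -0.05. All 3 vehicle libraries were above all 3 control libraries for Tspan33, Kit and Dnmt1 and below them for Aqp1, so that for these genes the 2 baselines behind the difference are not at the same level.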

How the results depend on the processing

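Unless the reference was changed, no named gene changed direction with a call in either the main or the alternative fit. Knockout against vehicle in place of control called 11 members (1 higher, 10 lower) and gave log2 changes of -2.34 for Hemgn, -1.59 for Rhag, -1.33 for Sptb, -1.08 for Car2, -0.55 for Add2, -0.45 for Slc25a37, -0.30 for Tspan33, -0.10 for Ank1, 0.35 for Aqp1 and -1.32 for Hba-x. Tspan33, Ank1 and Aqp1 were called against control only, with edgeR adjusted p-values of 0.537, 0.891 and 0.342 against vehicle. The other members of this list were called against vehicle only, so that none was called in both directions. AzadC against control in place of vehicle, chosen after the data were seen, called 7 members and 317 genes, and gave 2.92 for Hemgn, 1.56 for Sptb, 1.28 for Rhd, 0.55 for Add2, 0.36 for Slc25a37, 0.60 for Kit, 0.66 for Dnmt1 and 1.26 for Hba-x. Over all genes DESeq2 called 82 in AzadC against vehicle, 1314 in vehicle against control and 1459 for the difference, where no filter on low counts called 119, 1259 and 1438, and 4 members for the difference; the cause was not tested. With the replicate block, counts of called members were 5, 0, 11 and 2, as without it, and 1 gene was called in AzadC against vehicle. In vehicle against control the block called Klf1 (adjusted p = 0.0483) and not Rhag (0.0545). Leaving out 1 library each, members called ran from 2 to 5 in knockout against control, 0 in AzadC against vehicle, from 4 to 14 in vehicle against control and from 0 to 2 for the difference, and all genes from 1360 to 2551, 1 to 17, 136 to 704 and 328 to 878. Low counts limit Gata1, Klf1, Gfi1b, Pklr and Tspo2 most.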
